A study of Rattus norvegicus and Mus musculus with 24 samples.

Results

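Matrix metalloproteinases, their tissue inhibitors and the lysyl oxidases are followed here in the kidneys of *Ctns* knockout (KO) mice and rats. *Ctns* encodes cystinosin, the transporter that lets cystine out of lysosomes, and its loss causes the storage disease cystinosis. The 10 genes were chosen by symbol: the metalloproteinases MMP2, MMP7, MMP9 and MMP14, the related protease ADAMTS1, the inhibitors TIMP1, TIMP2 and TIMP3, and the lysyl oxidases LOX and LOXL2. All 10 are among the 17376 symbols of the mouse table and 9 are among the 14931 symbols of the rat table, where LOXL2 was not analysed here. Bulk RNA sequencing covered 4 *Ctns* KO and 4 wild-type (WT) mice on a C57BL/6 background, and 8 *Ctns* KO and 8 WT rats on a Sprague-Dawley background, with 1 library per animal and littermates as controls. The labels call the tissue kidney cortex and the cell type proximal tubule cells, and their protocol describes microdissected tubules, whereas the methods name kidney cortex. The study used female mice of several ages, but which age was sequenced, the age and sex of these rats and any treatment are given by neither. The rats carry the numbers 17 to 24 and 25 to 32, with 4 animals of each genotype in each range. What the ranges stand for is given nowhere in the labels.

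The extracellular matrix of the kidney is built by secretion and cross-linking of collagens and taken down by zinc-dependent proteases. MMP2 and MMP9 are gelatinases that cut denatured collagen and basement membrane collagen, MMP14 is a membrane-bound protease that also activates pro-MMP2, and MMP7 is a small protease made by injured tubular epithelium. TIMP proteins bind the active site of these proteases, TIMP3 being the member held in the matrix itself, while lysyl oxidases oxidize lysines so that collagen and elastin fibres are cross-linked. In scarring kidneys matrix synthesis and turnover are both known to be altered.

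Depth was 19309449 to 44449859 reads on genes per mouse and 24684097 to 40629873 per rat. Markers of distal nephron, podocytes and endothelium were read in every library, so that the libraries do not hold proximal tubule RNA alone. In the mouse, CTNS was 0.332 ± 0.0102 in KO and 0.918 ± 0.0868 in WT kidneys (scaled value, SD, n = 4 each), with no overlap. In the rat, CTNS was 19.1 ± 1.86 in KO and 22.3 ± 2.98 CPM in WT kidneys (SD, n = 8 each), and the groups overlapped, so its level in a single rat does not give the genotype. Its log2 fold change of -0.22 (SE 0.08) missed the threshold in the rat comparison (adjusted p = 0.0511 by edgeR with Benjamini-Hochberg adjustment) and passed with the number range as a covariate (adjusted p = 0.0239). KO mouse 3 stood apart from the other mice: XIST, the transcript that silences an X chromosome, had 49 reads there and 17581 to 42003 reads in the other 7, although the mice are stated to be female. Of the sex-linked genes looked up, DDX3Y, KDM5D, UTY and USP9Y had no read in any mouse, and none of the list is in the rat table.

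In the mouse, 5 of the 9 members tested were higher in *Ctns* KO kidneys, 1 was lower and 3 did not pass the test. MMP2, MMP14, TIMP1, TIMP2 and LOX rose and TIMP3 fell. In bulk tissue a change in the number of cells of a type and in the RNA per cell cannot be told apart. Among all 13132 symbols tested, 6.37% passed as higher and 2.33% as lower. The median log2 fold change was 0.67 over the 9 members and 0.01 over all symbols tested. Values are the deposited scaled values, in which the 75th percentile of a library is 1, and the test was limma on their log2, over symbols with a mean of at least 0.01. Without KO mouse 3, 6 members were higher and 1 lower, LOXL2 being the added one.

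**Figure D1:**
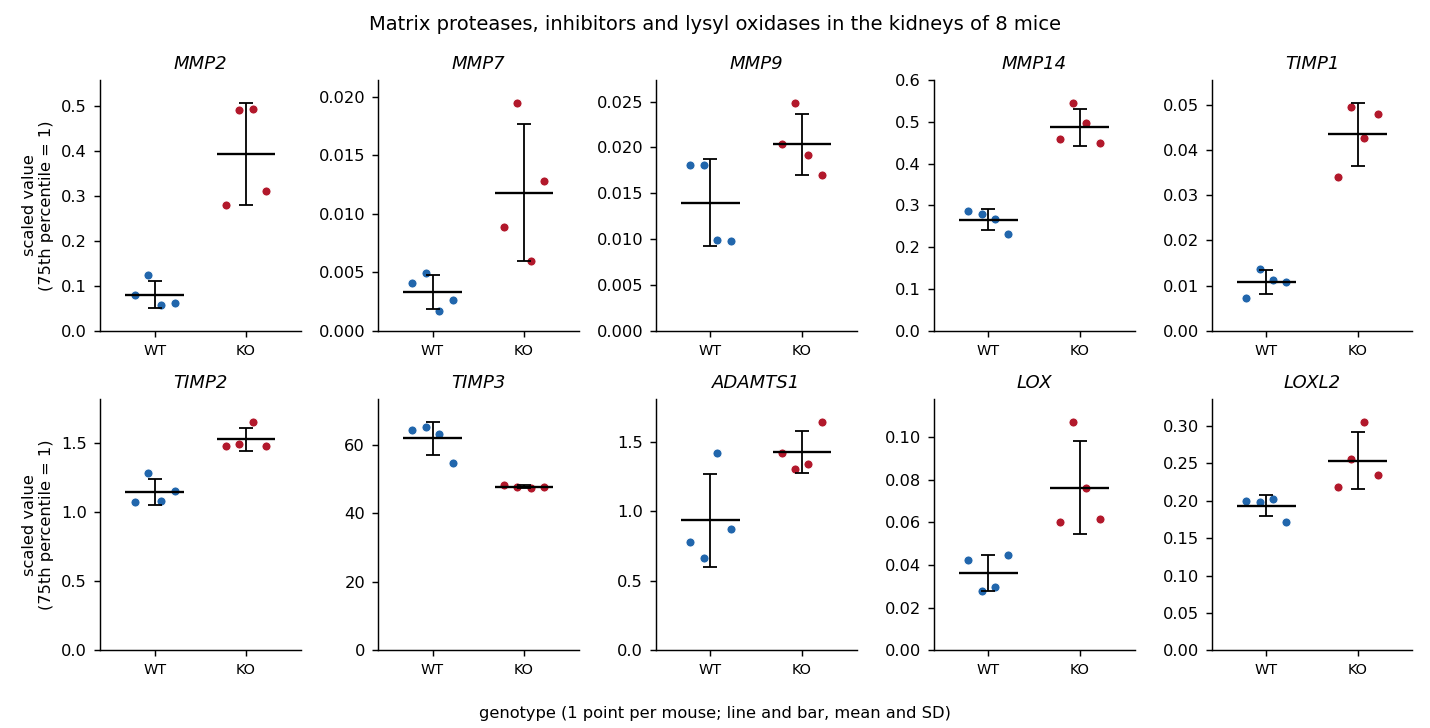
Scaled value (y axis, 75th percentile of the library = 1, starting at 0) of the 10 genes in 4 WT (blue) and 4 *Ctns* KO (red) mice, 1 point per mouse, with mean and SD. KO and WT points do not overlap for MMP2, MMP7, MMP14, TIMP1, TIMP2, LOX and LOXL2, where KO lies higher, and for TIMP3, where the 4 KO mice lie together between 47.3 and 48.4.

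The levels of the members were spread widely in WT mice, here compared as scaled value per kilobase of exon (gene models of GENCODE vM21, GRCm38). TIMP3 stood highest with a median of 7.81 (6.73 to 8.02), followed by TIMP2 with 0.286 (0.274 to 0.328) and ADAMTS1 with 0.155 (0.126 to 0.268). These 3 neighbours in the order did not overlap. MMP14 had a median of 0.0459, LOXL2 of 0.0368 and MMP2 of 0.021 per kilobase. MMP14 lay above LOXL2 in every mouse, while the ranges of LOXL2 (0.0319 to 0.0374) and MMP2 (0.0168 to 0.0372) overlapped. TIMP1 followed with 0.0125, LOX with 0.00754, MMP9 with 0.00396 and MMP7 with 0.00317. The ranges of TIMP1 and LOX overlapped, as did those of MMP9 and MMP7, while MMP2 lay above TIMP1 and LOX above MMP9 in all WT mice. In KO mice MMP2, at a median of 0.119 per kilobase (0.0835 to 0.146), overlapped MMP14, at 0.0801 (0.0754 to 0.0916).

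MMP2, on chromosome 8 of the mouse (GRCm38, 92827291 to 92853420), showed the largest log2 change of the members tested. Its scaled value was 0.281, 0.491, 0.494 and 0.312 in KO mice 3, 5, 6 and 8. WT mice 1, 2, 4 and 7 had 0.0791, 0.125, 0.0566 and 0.0627. Every KO mouse lay above every WT mouse, and KO mice 5 and 6 stood higher than KO mice 3 and 8. The log2 fold change was 2.31 (SE 0.29, 4.96-fold, adjusted p = 0.00158 by limma). MMP14, which activates pro-MMP2 at the cell surface, had scaled values of 0.458, 0.546, 0.496 and 0.449 in the KO mice and of 0.286, 0.279, 0.268 and 0.231 in the WT mice. The groups were far apart against a narrow spread, with a log2 fold change of 0.87 (SE 0.09, adjusted p = 7.43e-05).

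MMP9 and MMP7 were near the lower limit of these libraries. MMP9 had 19 to 32 reads per KO mouse and 14 to 28 per WT mouse, and the groups overlapped. Its log2 fold change of 0.59 (SE 0.3) did not pass the test (adjusted p = 0.271 by limma). MMP7 had 8, 25, 9 and 21 reads in KO mice 3, 5, 6 and 8 and 6, 4, 2 and 5 reads in WT mice 1, 2, 4 and 7. It fell under the minimum mean of the test. In scaled values, which allow for depth, each KO mouse lay above each WT mouse, the lowest KO value being 0.00599 and the highest WT value 0.00493. With no minimum limma gave a log2 fold change of 1.79 (SE 0.47, adjusted p = 0.0444). ADAMTS1, which cuts the proteoglycans versican and aggrecan, had scaled values of 1.42, 1.3, 1.34 and 1.64 in KO mice and of 0.776, 0.666, 1.42 and 0.87 in WT mice. WT mouse 4 lay within the KO range, and the change of 0.67 (SE 0.23) did not pass (adjusted p = 0.138). Without WT mouse 4 it was 0.89 (adjusted p = 0.000253), the range over all 8 fits that left out 1 mouse being 0.000253 to 0.26.

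The 3 inhibitors did not move together. TIMP1, an inducible secreted inhibitor encoded on the X chromosome (GRCm38, 20870166 to 20874735), had scaled values of 0.0339, 0.0494, 0.0425 and 0.0479 in KO mice 3, 5, 6 and 8. WT mice 1, 2, 4 and 7 had 0.0073, 0.0137, 0.0113 and 0.0108. Few reads stand behind these values, 32 to 80 per KO mouse and 11 to 22 per WT mouse. KO mouse 3, the library low in XIST, was the lowest of the KO mice and still lay above all WT mice. The log2 fold change was 2.03 (SE 0.26, adjusted p = 0.000246 by limma) and 2.15 without that mouse. TIMP2, which also takes part in the activation of pro-MMP2, had scaled values of 1.48, 1.49, 1.65 and 1.48 in KO mice and of 1.07, 1.28, 1.08 and 1.15 in WT mice. It rose by a log2 fold change of 0.42 (SE 0.07, adjusted p = 0.00215) with no overlap.

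TIMP3, whose protein binds to the matrix, went the other way. Its scaled value was 48.4, 47.7, 47.3 and 47.7 in KO mice and 64.2, 65.3, 63.1 and 54.8 in WT mice. All KO mice were lower than all WT mice, WT mouse 7 being the nearest to them. The log2 fold change was -0.37 (SE 0.08, adjusted p = 0.0138 by limma). Leaving out KO mouse 5 or KO mouse 6 ended this call (adjusted p = 0.0565 and 0.0529), with log2 fold changes of -0.37 in both cases. Per kilobase, TIMP3 made up 96.1 ± 0.417% of the summed level of the 3 inhibitors in WT and 93.0 ± 0.398% in KO mice (SD, n = 4 each). That sum was 7.9 ± 0.593 in WT and 6.3 ± 0.0393 in KO mice, a description chosen after the values were seen.

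Of the cross-linking enzymes, LOX had scaled values of 0.0601, 0.107, 0.0759 and 0.0616 in KO mice and of 0.0422, 0.0279, 0.0298 and 0.0449 in WT mice. Every KO mouse was higher, KO mouse 5 by most, and the log2 fold change was 1.06 (SE 0.23, adjusted p = 0.0094 by limma). LOXL2, which acts on basement membrane collagen, had scaled values of 0.218, 0.256, 0.305 and 0.234 in KO mice and of 0.2, 0.198, 0.202 and 0.172 in WT mice. Its groups did not overlap, but the log2 fold change of 0.38 (SE 0.11) missed the threshold (adjusted p = 0.0541), and without KO mouse 3 it was 0.45 (adjusted p = 0.0412). Among the 9 members tested, 6 lay higher in every KO mouse and 1 lower, against 9.26% and 4.96% of all symbols tested.

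In the rat, 6 of the 8 members tested were higher in *Ctns* KO kidneys, 1 was lower and 1 did not pass. MMP2, MMP14, TIMP1, TIMP2, ADAMTS1 and LOX rose, and TIMP3 fell. Among all 11584 symbols tested with edgeR, 15.2% passed as higher and 12.3% as lower. The median log2 fold change was 0.56 over the 8 members and -0.02 over all symbols. For 2 members, MMP2 and TIMP1, all 8 KO rats were higher than all 8 WT rats, as held for 3.89% of all symbols, while 1.95% of symbols and no member were lower in every KO rat. Levels are CPM, reads scaled to a common library size with TMM factors.

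MMP2 was 10.7 to 27.7 CPM in KO rats (median 18.5) and 5.88 to 8.5 CPM in WT rats (median 7.15). The groups did not overlap, and the log2 fold change was 1.38 (SE 0.18, adjusted p = 5.09e-05 by edgeR). TIMP1 was 7.15 to 39.8 CPM in KO rats (median 17.2) and 4.27 to 6.93 CPM in WT rats (median 5.57). Its KO rats spread over a far wider range than its WT rats, without overlap, at a log2 fold change of 1.86 (SE 0.33, adjusted p = 0.000629). MMP14 was 27.5 to 42.0 CPM in KO rats (median 34.9) and 20 to 29.1 CPM in WT rats (median 25.2). The groups overlapped, with a log2 fold change of 0.45 (SE 0.09, adjusted p = 0.00218).

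ADAMTS1 was 74.4 to 214 CPM in KO rats (median 122) and 34.1 to 76.0 CPM in WT rats (median 46.5), a log2 fold change of 1.35 (SE 0.25, adjusted p = 0.000771 by edgeR). The groups overlapped at their edges. TIMP2 was 28.2 to 41.6 CPM in KO rats and 23.1 to 29 CPM in WT rats, with a log2 fold change of 0.35 (SE 0.08, adjusted p = 0.00287). In 9 of its 16 rats the deposited TIMP2 value was not a whole number of reads, so its level is uncertain to that extent. TIMP3 was 329 to 509 CPM in KO rats (median 455) and 479 to 782 CPM in WT rats (median 611). It fell with a log2 fold change of -0.5 (SE 0.11, adjusted p = 0.00281), although KO rats 22 and 24 lay above the lowest WT rat.

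LOX was 1.17 to 3.39 CPM in KO rats (median 1.96) and 0.63 to 2.32 CPM in WT rats (median 1.21). Its log2 fold change was 0.68 (SE 0.25) with an adjusted p of 0.0492 by edgeR, and the call was lost in 13 of the 16 fits that left out 1 rat (adjusted p of 0.0118 to 0.0954 over the 16). MMP9 was 8.72 to 42.1 CPM in KO rats and 16.9 to 38.3 CPM in WT rats. The ranges lay across each other, and the change of -0.19 (SE 0.25) did not pass (adjusted p = 0.619).

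MMP7 was near absent from WT rats and was left out by the filter on low counts. Over the groups it had 40 reads in KO and 2 reads in WT rats, with a read in 7 of 8 KO rats and in 1 of 8 WT rats. Scaled for depth the ratio was 21.5 (95% interval 5.57 to 183, for counting error only). KO rats 18, 20, 22 and 24 had 0, 2, 3 and 2 reads, against none in the 4 WT rats of that range. With 3 reads set for that WT group, the limit that a count of 0 allows, the ratio was 2.4. The 95% interval of the ratio, for counting error only, starts at 1.48 there. KO rats 26, 28, 30 and 32 had 6, 14, 5 and 8 reads, against 2 reads in WT rat 25 and none in WT rats 27, 29 and 31. Most of the reads thus came from the 25 to 32 range. With no filter edgeR gave a log2 fold change of 3.79 (SE 0.86, adjusted p = 0.00386) over all rats. Among rats 17 to 24 alone it was 3.92 (SE 1.5) and did not pass (adjusted p = 0.169 by edgeR). Among rats 25 to 32 alone it was 3.74 (SE 0.85, adjusted p = 0.00485 by edgeR).

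The promoter of MMP7 is shown because MMP7 was the only member with a motif match among those with an entry. Promoters were taken from RefSeq (rat build GRCr8, 250 bases before to 50 bases after the start), where 5 of the 10 members have an entry: MMP7, TIMP1, TIMP2, TIMP3 and ADAMTS1. Both strands were searched for exact matches to TGANTCA, a motif of the AP-1 factors, and to ACGTG, the core of the hypoxia response element. Sites that depart from these motifs were not looked for, so a promoter without a match may still hold such a site. TGANTCA was found in 1 of the 5 and ACGTG in 0, against 7.33% and 19.3% of all 33469 rat promoters. The stretch below is chr8:13132933-13133012 on the plus strand, 110 to 31 bases before the start of MMP7, and the capitals mark the match at 80 to 74 bases before it.
MMP7: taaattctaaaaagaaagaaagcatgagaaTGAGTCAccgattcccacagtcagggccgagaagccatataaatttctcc

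**Figure D2:**
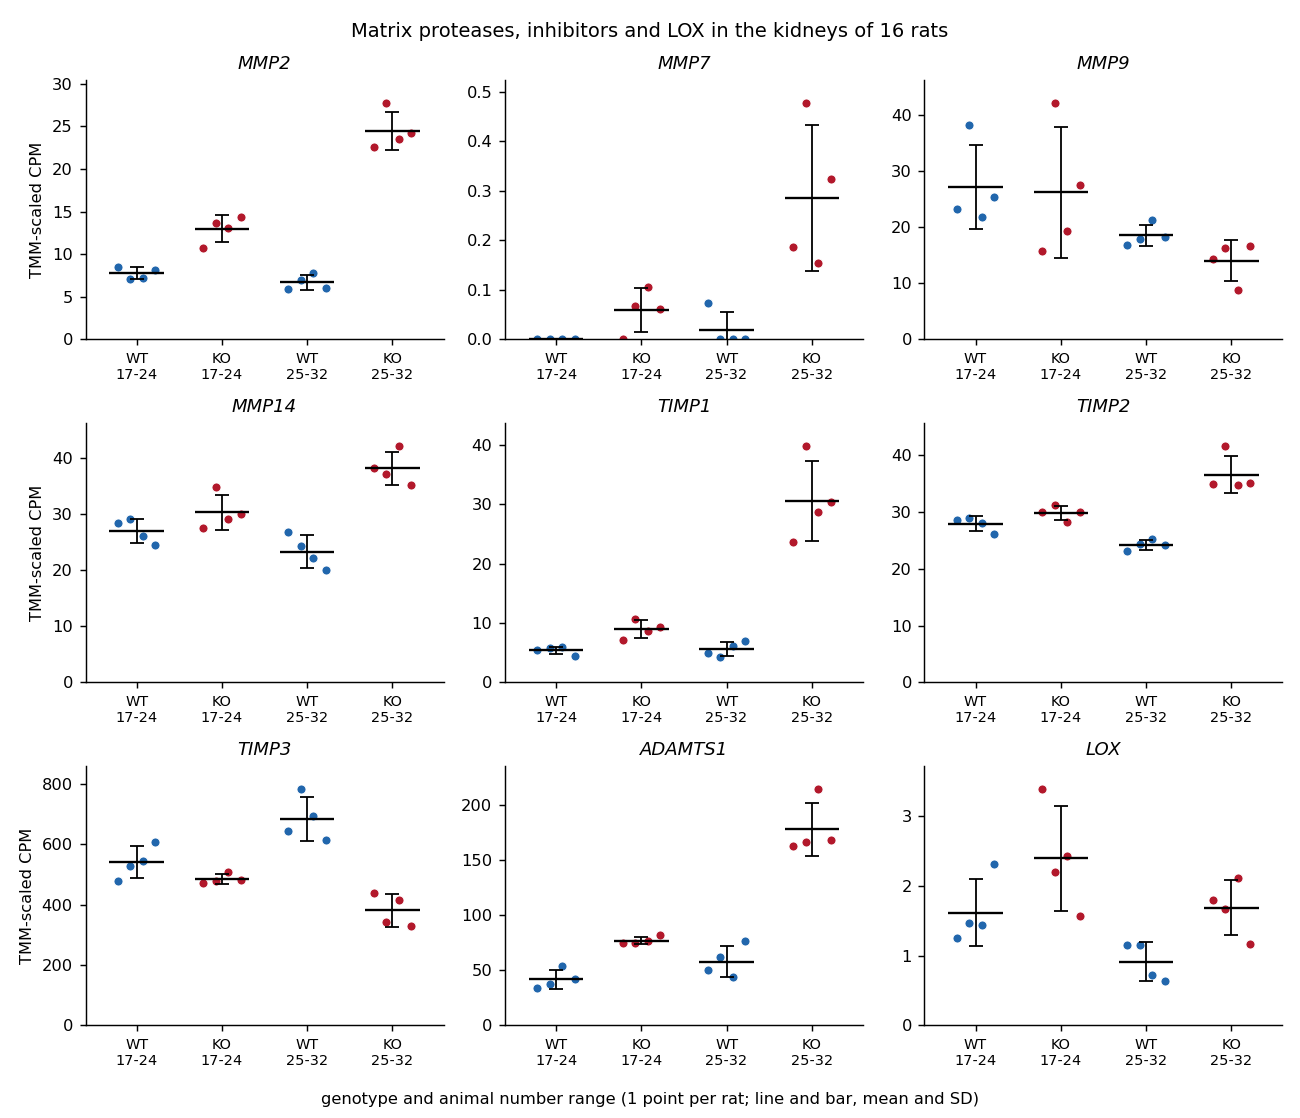
TMM-scaled CPM (y axis, starting at 0) of the 9 genes in WT (blue) and *Ctns* KO (red) rats, split by animal number range, 1 point per rat, with mean and SD for 4 rats a group. The KO rats of the 25 to 32 range stand highest for MMP2, MMP7, MMP14, TIMP1, TIMP2 and ADAMTS1 and lowest for TIMP3.

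The rat changes differed between the number ranges. Among rats 17 to 24, 3 of 8 members were higher, 0 were lower and 5 did not pass, where 5.07% of the 11610 symbols tested were higher and 2.19% lower. Among rats 25 to 32, 6 of 8 members were higher, 1 was lower and 1 did not pass, where 21.8% of the 11633 symbols tested were higher and 22.1% lower. The difference between the genotype changes (25 to 32 minus 17 to 24), tested with edgeR in 1 model of all 16 rats, passed as higher for 5 members and as lower for 1, against 7.1% and 7.64% of 11839 symbols. The share of all symbols whose groups separated without overlap was not counted within either range. Separation of a member within a range, given below, thus has no such share to be read against. The labels describe the ranges in no other way, so the range and any other difference between these rats cannot be told apart.

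TIMP1 had the largest such difference. KO rats 18, 20, 22 and 24 had 7.15, 10.7, 8.73 and 9.39 CPM, and WT rats 17, 19, 21 and 23 had 5.4, 5.75, 5.9 and 4.49 CPM. KO rats 26, 28, 30 and 32 had 23.6, 39.8, 28.7 and 30.4 CPM, and WT rats 25, 27, 29 and 31 had 5.02, 4.27, 6.07 and 6.93 CPM. WT rats were alike in both ranges while the KO rats of the higher range stood far above those of the lower. The log2 fold change with genotype was 0.75 (SE 0.14, adjusted p = 0.00547 by edgeR) among rats 17 to 24 and 2.47 (SE 0.18, adjusted p = 6.32e-06) among rats 25 to 32. Their difference was 1.72 (SE 0.24, adjusted p = 0.000391).

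MMP2 followed the same order. KO rats 18, 20, 22 and 24 had 10.7, 13.7, 13.1 and 14.4 CPM, and WT rats 17, 19, 21 and 23 had 8.5, 7.13, 7.16 and 8.16 CPM. KO rats 26, 28, 30 and 32 had 22.6, 27.7, 23.5 and 24.2 CPM, and WT rats 25, 27, 29 and 31 had 5.88, 6.98, 7.76 and 6.08 CPM. No KO rat overlapped a WT rat in either range, a separation whose share over all symbols was not counted. The log2 fold changes were 0.75 (SE 0.11, adjusted p = 0.00132 by edgeR) and 1.88 (SE 0.11, adjusted p = 1.43e-06), and their difference was 1.12 (SE 0.16, adjusted p = 0.000353).

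ADAMTS1 rose in both ranges. KO rats 18, 20, 22 and 24 had 74.7, 74.4, 76.5 and 81.9 CPM and KO rats 26, 28, 30 and 32 had 163, 166, 214 and 168 CPM. WT rats had 34.1 to 54.0 CPM in the lower range and 43.4 to 76.0 CPM in the higher. The KO rats of the higher range thus stood above all others, KO rat 30 by most. The log2 fold changes were 0.88 (SE 0.12, adjusted p = 0.00194 by edgeR) and 1.62 (SE 0.16, adjusted p = 3.8e-05). Their difference of 0.74 (SE 0.22) passed at an adjusted p of 0.0353 and was lost in 9 of the 16 fits that left out 1 rat (adjusted p of 0.00935 to 0.0718).

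MMP14 and TIMP2 passed in the higher range and did not pass in the lower. MMP14 was 27.5 to 34.7 CPM in KO and 24.5 to 29.1 CPM in WT rats 17 to 24 (log2 fold change 0.18, SE 0.08, adjusted p = 0.238 by edgeR). It was 35.1 to 42.0 CPM in KO and 20 to 26.7 CPM in WT rats 25 to 32, without overlap (0.71, SE 0.1, adjusted p = 0.000288). The difference was 0.54 (SE 0.13, adjusted p = 0.0124). TIMP2 was 28.2 to 31.2 CPM in KO and 26.1 to 29 CPM in WT rats 17 to 24 (0.1, SE 0.06, adjusted p = 0.357). It was 34.7 to 41.6 CPM in KO and 23.1 to 25.3 CPM in WT rats 25 to 32 (0.6, SE 0.08, adjusted p = 0.000161), and the difference was 0.5 (SE 0.09, adjusted p = 0.00301).

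TIMP3 moved downward in the same pattern. KO rats 18, 20, 22 and 24 had 471, 478, 509 and 483 CPM, within or near the 479 to 608 CPM of their WT controls, and the change of -0.15 (SE 0.07) did not pass (adjusted p = 0.258 by edgeR). KO rats 26, 28, 30 and 32 had 439, 341, 414 and 329 CPM, and WT rats 25, 27, 29 and 31 had 645, 782, 693 and 613 CPM. All KO rats of the higher range lay below all WT rats (-0.84, SE 0.11, adjusted p = 0.000229). The difference between the ranges was -0.69 (SE 0.14, adjusted p = 0.00404).

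LOX and MMP9 did not differ between the ranges by this test. LOX changed by 0.56 (SE 0.26, adjusted p = 0.233 by edgeR) among rats 17 to 24 and by 0.88 (SE 0.27, adjusted p = 0.0218) among rats 25 to 32, and the difference was 0.32 (SE 0.39, adjusted p = 0.601). Leaving out KO rat 30, WT rat 29 or WT rat 31 ended the call in the higher range (adjusted p of 0.0116 to 0.0593 over the 8 fits). MMP9 changed by -0.05 (SE 0.35) and by -0.41 (SE 0.18, adjusted p = 0.0832), with a difference of -0.36 (SE 0.38, adjusted p = 0.544). All 4 KO rats of the higher range, at 8.72 to 16.7 CPM, lay below their WT controls, at 16.9 to 21.3 CPM. In that range 21.8% of all symbols passed as higher and 22.1% as lower, and the share that separated without overlap was not counted.

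**Figure D3:**
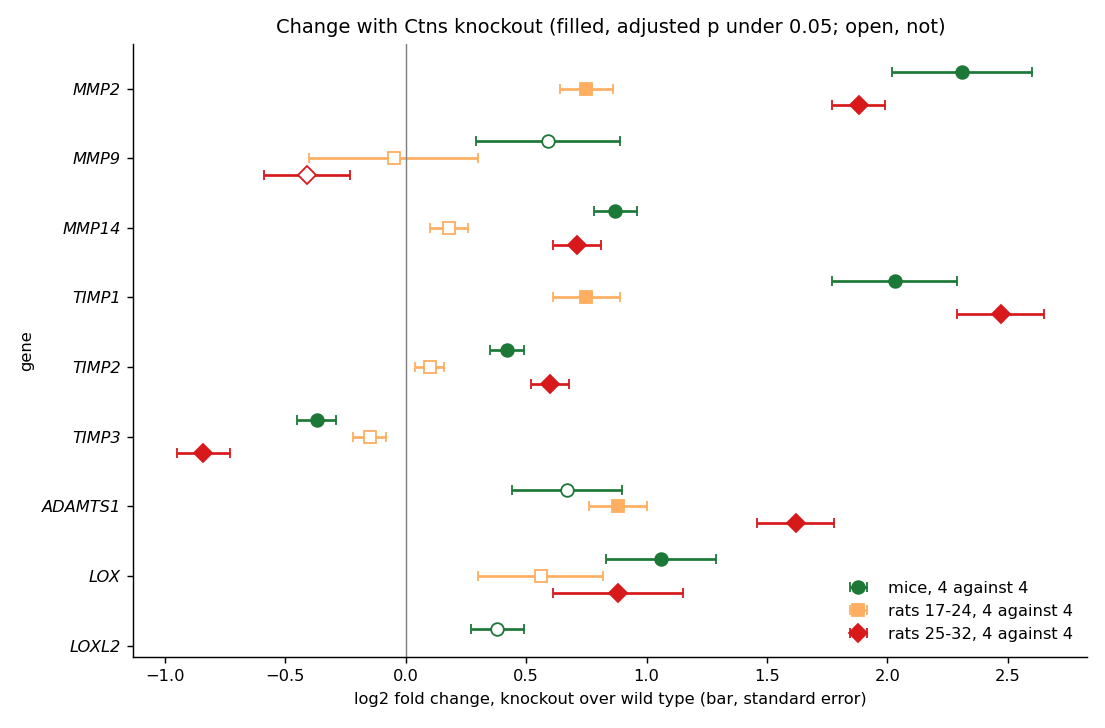
Log2 fold change of KO over WT (x axis) with its standard error for the members tested, in mice (green), rats 17 to 24 (orange) and rats 25 to 32 (red). Filled points passed the test at an adjusted p under 0.05. MMP2 and TIMP1 lie furthest to the right in mice and in rats 25 to 32, and TIMP3 lies left of 0 in all 3 comparisons.

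The same model compared the ranges within each genotype. In KO rats, 5 of 8 members were higher in the 25 to 32 range and 2 were lower, against 24.2% and 22.8% of all symbols. TIMP1 was higher by 1.76 (SE 0.17), ADAMTS1 by 1.2 (SE 0.16), MMP2 by 0.92 (SE 0.11), MMP14 by 0.33 (SE 0.09) and TIMP2 by 0.29 (SE 0.07) on the log2 scale. MMP9, at -0.91 (SE 0.27), and TIMP3, at -0.35 (SE 0.1), were the lower ones. In WT rats, 2 of 8 members were higher in the 25 to 32 range and 1 was lower, against 11.7% and 9.43% of all symbols. ADAMTS1 was higher by 0.46 (SE 0.16, adjusted p = 0.0485 by edgeR) and TIMP3 by 0.34 (SE 0.1, adjusted p = 0.0185), and TIMP2 was lower (-0.21, SE 0.07, adjusted p = 0.0352). TIMP2 and TIMP3 thus moved between the ranges in opposite directions in KO and WT rats. Cell type markers also differed between the ranges: 4 of 5 podocyte markers were lower in the 25 to 32 range in both genotypes, and endothelial markers were lower for 4 of 5 in KO and 3 of 5 in WT rats. Distal tubule markers were lower for 5 of 5 in WT rats and for 3 of 5, with 1 higher, in KO rats. Macrophage markers were higher for 6 of 6 in KO and 4 of 6 in WT rats, and lymphocyte markers for 5 of 5 and 4 of 5. Fibroblast and pericyte markers were higher for 3 of 7, with 1 lower (PDGFRA), in KO rats and higher for 1 of 7 in WT rats. Proximal tubule markers were lower for 2 of 5 in KO rats, while in WT rats 3 of 5 were higher and 1 (CUBN) lower. The part of these markers in the differences between ranges was not tested.

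Whether the change with genotype differed between species was tested with limma over 10498 symbols, on values scaled alike. No member of 8 passed, where 1.24% of all symbols were higher in the rat and 0.743% lower, and edgeR on the reads of both species also gave 0 members. At an unadjusted p under 0.05 there were 2 members, MMP2 (difference of log2 changes, rat minus mouse, -0.96, SE 0.34, adjusted p = 0.14) and MMP14 (-0.4, SE 0.16, adjusted p = 0.198). ADAMTS1 (0.64, SE 0.39), MMP9 (-0.84, SE 0.41), TIMP1 (-0.4, SE 0.5), LOX (-0.31, SE 0.4), TIMP3 (-0.09, SE 0.16) and TIMP2 (-0.03, SE 0.12) did not reach it. With these standard errors the tests do not show that the changes were alike in both species. The loss of CTNS differed, being smaller in the rat (1.28, SE 0.13, adjusted p = 1.86e-06).

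Some members had their highest value in the same animal. With fewer KO animals than members some sharing must occur, and whether there was more of it than chance gives was not tested. KO mouse 5 had the highest value of the KO mice for 5 of 10 members (MMP7, MMP9, MMP14, TIMP1 and LOX). KO rat 28 was the highest of its range for MMP2, MMP7, TIMP1 and TIMP2 of the 9 members, and KO rat 30 for MMP14, ADAMTS1 and LOX. KO rat 20 was the highest of its range for MMP9, MMP14, TIMP1 and TIMP2.

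Markers of cell types were followed in the same comparisons. Their counts are to be read against the 6.37% higher and 2.33% lower of all symbols in mice and the 15.2% and 12.3% in rats. In the mouse, all 6 macrophage markers tested were higher in KO kidneys. Their list summed to 3.34 to 3.94 in KO and 2.21 to 2.44 in WT mice (scaled value), with the highest sum in KO mouse 5. Of 8 fibroblast and pericyte markers, 2 were higher (COL1A1 and LUM), the list summing to 4.42 to 5.11 in KO and 3.28 to 4.36 in WT mice. None of 7 proximal tubule markers passed, with sums of 240 to 256 in KO and 245 to 339 in WT mice. In the rat, 5 of 6 macrophage markers tested were higher, with sums of 129 to 146 CPM in KO and 80.8 to 104 CPM in WT rats 17 to 24, and of 255 to 357 CPM in KO and 120 to 146 CPM in WT rats 25 to 32. KO rat 28 had the highest sum in that range. Of 6 fibroblast markers tested 5 were higher (sums of 245 to 359 CPM in KO and 183 to 215 CPM in WT rats). By range, 1 of 6 fibroblast markers (COL1A1) passed as higher among rats 17 to 24 and 5 of 6 among rats 25 to 32. Macrophage markers passed as higher for 5 of 6 and lymphocyte markers for 4 of 4 in each range. Of all symbols, 5.07% were higher among rats 17 to 24 and 21.8% among rats 25 to 32. Over all rats, 3 of 5 proximal tubule markers were lower (5790 to 7940 CPM in KO and 8960 to 12500 CPM in WT rats).

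Neutrophil markers summed to 0.0321 to 0.0521 in KO and 0.0305 to 0.0509 in WT mice, MPO and CAMP having no read in KO mice. In rats these markers summed to 1.29 to 2.51 CPM in KO and 0.676 to 1.92 CPM in WT animals, and ELANE had no read. The 1 neutrophil marker tested in mice did not pass, and of 2 tested in rats CSF3R was higher in KO kidneys (log2 fold change 0.81, SE 0.21, adjusted p = 0.00902 by edgeR). All 4 lymphocyte markers tested were higher in KO rats (sums of 27 to 56.6 against 17 to 34.0 CPM) and none of 6 in KO mice. Of 5 distal tubule markers 2 were higher in KO rats and of 8 none in KO mice, no podocyte marker of 5 passed in either species, and of the endothelial markers 1 of 6 was lower in KO mice and none of 5 in KO rats. Among rats 25 to 32 alone, 3 of 5 endothelial markers (EMCN, KDR and VWF) and 1 of 5 podocyte markers (PODXL) were lower in KO rats. There 4 of 5 proximal tubule markers were lower and 3 of 5 distal tubule markers higher. In that range 21.8% of all symbols were higher and 22.1% lower, and the podocyte count lay near that share. Among rats 17 to 24 alone, EMCN was the endothelial marker that was lower, and 2 of 5 proximal tubule markers were lower. There 5.07% of all symbols were higher and 2.19% lower. The part of these cell types in the changes of the members was not tested.

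The other genes of matrix turnover were followed as lists, of which at most 4 genes per comparison are named, those with the largest changes past the threshold. The counts are to be read against the 6.37% higher and 2.33% lower of all symbols in the mouse and the 15.2% and 12.3% in the rat, and those of the other ADAMTS proteases lay near these shares. Of the other metalloproteinases, 1 of 10 tested was higher in KO mice and 2 of 7 in KO rats, and none was lower. MMP19 was the mouse gene (log2 fold change 1.4, SE 0.25, adjusted p = 0.00282 by limma), and it was higher in KO rats too (0.89, SE 0.21, adjusted p = 0.00433 by edgeR). MMP12, the elastase of macrophages, was 3.97 ± 1.56 CPM in KO and 1.42 ± 0.734 CPM in WT rats (SD, n = 8 each), a change of 1.49 (SE 0.33, adjusted p = 0.00286). The list's median change was 0.23 in the mouse and 0.02 in the rat.

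Of the other ADAMTS proteases, 1 of 13 tested was higher in KO mice, namely ADAMTS2, which removes the amino-terminal propeptide of collagen (0.75, SE 0.12, adjusted p = 0.00123 by limma). In KO rats 2 of 11 were higher, the aggrecanase ADAMTS4 (1.8, SE 0.34, adjusted p = 0.00107 by edgeR) and ADAMTS14 (0.53, SE 0.16, adjusted p = 0.0202). Of the membrane-bound ADAM proteases, none of 8 passed in mice and 3 of 6 were higher in rats. ADAM8, a protease of leukocytes, changed most (1.73, SE 0.29, adjusted p = 0.000386), and its change was larger among rats 25 to 32 than among rats 17 to 24 by 1.77 (SE 0.28, adjusted p = 0.000807). The medians were 0.24 and 0.26 for the ADAMTS and ADAM lists in the mouse and 0.12 and 0.09 in the rat.

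In the plasminogen system and the other inhibitors, 3 of 7 genes tested were higher in KO mice, and 2 were higher and 1 lower of 7 in KO rats. PLAUR, the urokinase receptor, was higher in both (mouse 0.75, SE 0.14, adjusted p = 0.0037 by limma; rat 0.59, SE 0.18, adjusted p = 0.0196 by edgeR). SERPINE2, protease nexin 1, went in opposite directions: it was 1.05 ± 0.115 in KO and 0.499 ± 0.12 in WT mice (scaled value, SD, n = 4 each), and 11.4 ± 1.9 in KO and 15.3 ± 0.623 CPM in WT rats (SD, n = 8 each). The species difference of its change was -1.49 (SE 0.17, adjusted p = 1.36e-05 by limma), past the threshold.

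Of the collagen maturation and cross-linking genes, 5 of 16 tested were higher in KO mice and 11 did not pass, and 7 of 14 were higher in KO rats and 7 did not pass. LOXL1, the lysyl oxidase of elastic fibres, was 0.571 ± 0.0419 in KO and 0.333 ± 0.0223 in WT mice (scaled value, SD, n = 4 each), a change of 0.78 (SE 0.08, adjusted p = 6.42e-05 by limma). In rats it was 58.1 ± 16.9 in KO and 36.8 ± 2.52 CPM in WT kidneys (0.66, SE 0.14, adjusted p = 0.00288 by edgeR). LOXL3 was higher in mice (0.49, SE 0.12, adjusted p = 0.0171) and LOXL4 in rats (0.97, SE 0.17, adjusted p = 0.00049). SERPINH1, the collagen chaperone, was higher in both (mouse 0.44, SE 0.07; rat 0.4, SE 0.08).

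The matrix substrates held the most calls, with 10 of 15 higher in KO mice, 9 of 15 higher in KO rats and none lower. COL3A1, a fibrillar collagen, was 1.54 ± 0.144 in KO and 0.48 ± 0.107 in WT mice (scaled value, SD, n = 4 each), a change of 1.7 (SE 0.14, adjusted p = 6.23e-05 by limma). In rats COL3A1 was 91.3 ± 23.3 in KO and 49.3 ± 4.99 CPM in WT kidneys (0.89, SE 0.13, adjusted p = 0.000157 by edgeR). COL1A1 (mouse 1.2, SE 0.14; rat 0.72, SE 0.15) and fibronectin FN1 (mouse 0.88, SE 0.15; rat 0.68, SE 0.13) were also among the largest in both. The median change of the list was 0.61 in the mouse and 0.41 in the rat, beside 0.01 and -0.02 over all symbols.

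Split by range, the rat lists held more calls among rats 25 to 32, as did all symbols, of which 5.07% were higher and 2.19% lower among rats 17 to 24 and 21.8% and 22.1% among rats 25 to 32. For the test of the difference the shares of all symbols were 7.1% higher and 7.64% lower. Matrix substrates passed as higher for 6 of 15 genes among rats 17 to 24 and for 9 of 15 among rats 25 to 32, and 4 of 15 passed the test of the difference, namely COL18A1, FN1, COL6A1 and LAMB1. COL18A1 was 227 ± 18.9 in KO and 160 ± 8.47 CPM in WT rats 17 to 24, and 369 ± 36.0 in KO and 159 ± 7.84 CPM in WT rats 25 to 32 (SD, n = 4 each). Collagen maturation genes passed as higher for 2 of 14 and for 8 of 14, with TGM2 lower in the higher range and 5 of 14 past the test of the difference, all upward. For the other metalloproteinases 2 of 7 were higher among rats 17 to 24 and 3 of 8 among rats 25 to 32, and the 1 difference that passed, for MMP11, was downward (-0.45, SE 0.13, adjusted p = 0.0302 by edgeR). No gene of the other ADAMTS list passed the test of the difference, while 1 of 6 ADAM proteases and 2 of 8 genes of the plasminogen list did.

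**Figure D4:**
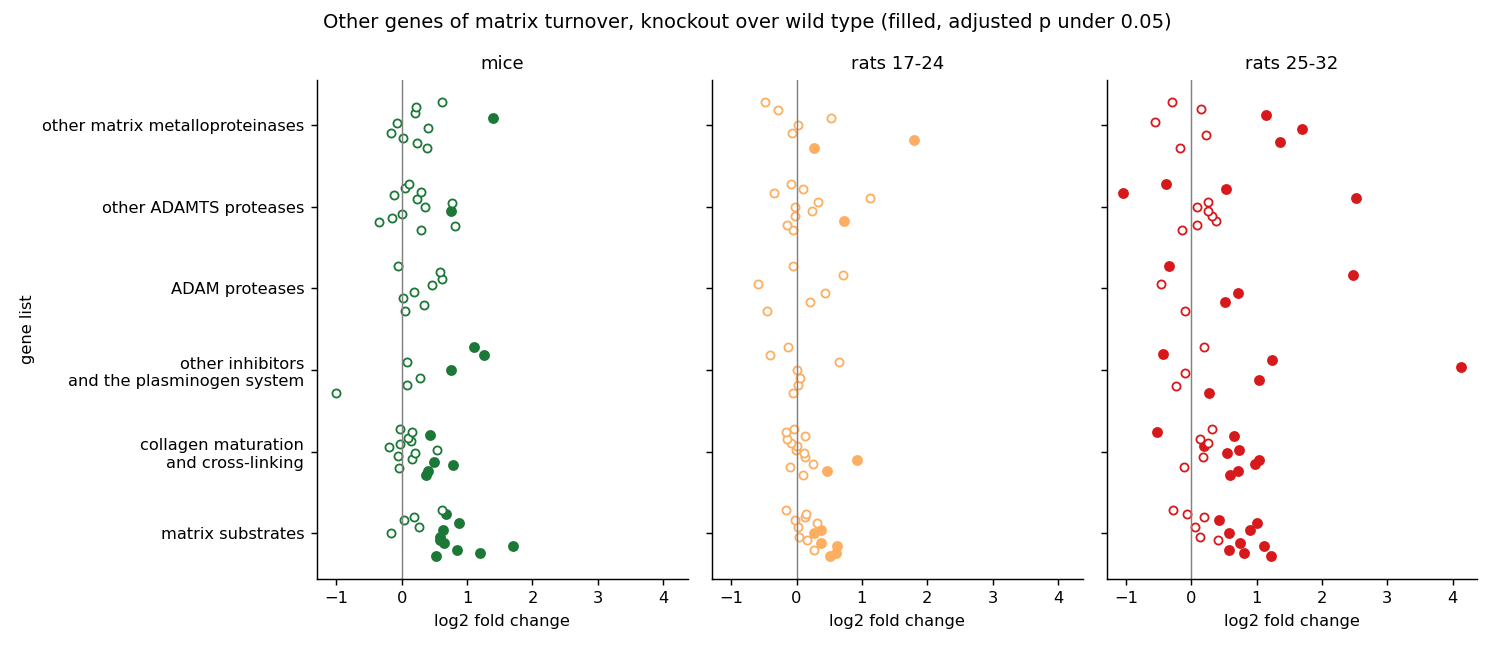
Log2 fold change of KO over WT (x axis) for each gene tested in 6 lists of matrix turnover (y axis), in mice, rats 17 to 24 and rats 25 to 32, 1 point per gene, filled where the adjusted p was under 0.05. Matrix substrates lie mostly right of 0 in each panel, with 10, 6 and 9 of 15 filled. The metalloproteinase, ADAMTS and ADAM lists have points on both sides of 0 in each panel. Their medians also lie right of 0 in mice (0.23, 0.24 and 0.26) and in rats 25 to 32 (0.19, 0.25 and 0.21).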

How the data were processed

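Bulk RNA sequencing (stranded mRNA libraries, paired reads) was analysed for 8 mice and 16 rats, grouped by genotype and animal number from the labels. The submitters' processing notes list bcl2fastq 2.20, STAR 2.7.3, DESeq2 1.24.0 and R 3.6.1, with the builds mm10 and rn5, without roles; the counting, annotation and filters are not given in the sources used here. For the mouse the authors deposited a scaled signal: checked against the values, reads plus 0.5 over the library's 75th percentile plus 0.5. Undoing this gave whole reads, within 0.01, for 99% of values. For the rat the deposited values are estimated counts with a small constant added (1/6), unscaled, whole for 97.7% of values after it was taken off and rounded to whole numbers for the tests. Symbols follow human style, so several rodent genes can share 1 symbol.

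Mouse values were tested with limma 3.58.1 (trend, robust) on log2(value) with no further pseudocount, over symbols with a mean of at least 0.01. Rat counts were tested with edgeR 4.0.16 (quasi-likelihood, robust, TMM, its count filter), and species with limma on rat reads scaled like the mouse values, all in R 4.3.3. P-values were adjusted by Benjamini-Hochberg over all symbols tested (threshold 0.05) and cover the spread between animals. The procedures were tested on simulated data. The members, gene lists and marker lists were chosen with earlier results of these data known. All members were named; of the lists, at most 4 genes per comparison with the largest changes past the threshold. 1 list gene is counted but not reported here. Alternatives were other pseudocounts, filters and normalizations, DESeq2 1.42.0, edgeR on recovered mouse reads, limma-voom, the rat number range as a covariate, and leaving out each animal. Intervals for MMP7 are exact and cover counting error only. Exon lengths and mouse positions came from GENCODE vM21 (GRCm38). The controls were littermates, but the labels give no litter, so no analysis paired by litter was possible.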

Additional observations from a re-analysis of the deposited data

Results flagged for a closer look

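Some single animals stood far from the rest of their group. The distance of the highest or lowest animal from its nearest neighbour was compared with the range of the group for 73 groups of a member and a condition, of which 7 passed, where chance passes about 1 in 20. WT rat 25 was the only WT rat with MMP7 reads, at 0.0744 CPM, which passed among all 8 WT rats and again among the 4 WT rats of its range; with all other WT rats at 0, any single read would pass, so these 2 of the 7 say nothing about that rat. WT rat 19 was high for MMP9 among all WT rats at 38.3 CPM. KO mouse 6 was high for TIMP2 at a scaled value of 1.65, KO rat 28 was high for TIMP2 in its range at 41.6 CPM, and KO rat 30 was high for ADAMTS1 in its range at 214 CPM. WT mouse 7 was low for LOXL2 at a scaled value of 0.172.

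Effects of genotype that differed between the rat number ranges by the edgeR test (25 to 32 minus 17 to 24, log2 scale) were those of MMP2 (1.12), MMP14 (0.54), TIMP1 (1.72), TIMP2 (0.5), ADAMTS1 (0.74) and TIMP3 (-0.69). The effect of genotype on CTNS differed between species by 1.28 (rat minus mouse, limma).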

How the results depend on the processing

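Among the alternatives that kept all animals, 229 of the log2 fold changes of the members and CTNS kept direction and side of the threshold, 3 gained the call (LOXL2 in mice with DESeq2, and CTNS in rats with DESeq2 or the number range as a covariate), 1 lost it (LOX in rats with no filter, adjusted p = 0.0547 by edgeR) and 1 reversed without passing (TIMP1 between species with a pseudocount of 1, 0.289). The number of symbols called in mice was 722 with a mean of at least 0.1 against 1143, and between species 315 with a pseudocount of 1 and 87 with a mean of at least 0.1, against 208. The causes were not tested.

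Leaving out 1 animal gave 5 to 7 members past the threshold in mice (633 to 1391 symbols), 6 to 7 in rats (2536 to 3478), 3 in each fit among rats 17 to 24 (504 to 930), 6 to 7 among rats 25 to 32 (3946 to 5242), 5 to 6 for the difference between ranges (1010 to 2392) and 0 between species (115 to 303). MMP9 ranged from -0.373 to 0.166 among rats 17 to 24 and reversed without KO rat 18 (0.128), KO rat 22 (0.072) or WT rat 19 (0.166), and TIMP2 ranged from -0.089 to 0.004 between species and reversed without KO mouse 6 (0.004), none past the threshold. Symbol counts moved by over 1.5 times without KO mouse 5 (634) or 6 (633), without KO rat 20 (549), KO rat 24 (504) or WT rat 21 (522) among rats 17 to 24, without KO rat 22 (1135), KO rat 28 (1010) or WT rat 27 (1163) for the difference between ranges, and without KO mouse 3 (129), 5 (120) or 6 (115) or WT mouse 1 (134) or 4 (122) between species. Depth limits MMP7, MMP9 and TIMP1 in mice and MMP7 and LOX in rats, where few reads stand behind each value. Litters are not given in the labels, so the tests do not allow for them.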
